A study of Homo sapiens with 8 samples.

Results

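The comparison described here sets 786-O cells that carried a VHL vector and were kept in hypoxia (VHL+ hypoxia) against untransfected 786-O cells kept in normoxia (VHL- normoxia). The members are arrays, and they were chosen from the labels alone: 2 arrays of VHL+ hypoxia and 2 arrays of VHL- normoxia, which make 4 of the 8 arrays of the series. The other 4 arrays hold VHL+ normoxia and VHL- hypoxia, with 2 arrays each. 786-O is an established human clear cell renal carcinoma line that lacks functional VHL, and all groups were incubated for 24 h before total RNA was taken and hybridised to whole-transcript Affymetrix arrays. The VHL+ cells are stable transfectants supplied from outside, and no clone number is given in the sources used here. The paper describes bulk cultures of transfectants where it measured VHL mRNA, and does not say so for the arrays. The VHL- cells were labelled as not transfected at all. The compared groups thus differ in VHL, in the vector and its selection, and in oxygen, and these differences cannot be told apart from the 4 arrays alone. The replicates were labelled biological. The p-values rest on a spread between replicates that was pooled over all 8 arrays and moderated by that of other clusters.

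VHL is the substrate receptor of a ubiquitin ligase that captures the hypoxia-inducible factor (HIF) alpha subunits after prolyl hydroxylases of the EGLN family have used oxygen to hydroxylate them. Without VHL, or without oxygen, the alpha subunits escape destruction, pair with ARNT and raise the transcription of genes for glucose uptake, angiogenesis and matrix remodelling. In clear cell renal carcinoma the loss of VHL leaves this pathway on in normal oxygen, so the comparison places cells with the pathway switched on by low oxygen against cells with it switched on by a missing ligase.

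The deposited values are log2 signals of 33297 transcript clusters (probe groups that each stand for a transcript). The array medians were 6.91 and 6.74 for VHL+ hypoxia, against 6.79 and 6.74 for VHL- normoxia, and lay between 6.60 and 6.91 over all 8 arrays. The replicate arrays of a group correlated across clusters at 0.991 to 0.994. All 7 measured markers of renal tubule and renal carcinoma cells, among them PAX8, PAX2 and KRT18, lay above the array median on all 8 arrays. Of the markers of leukocytes, endothelium and fibroblasts, 6 of 8, 6 of 7 and 6 of 8 lay below it on all arrays. No member of these marker lists passed the test between the compared groups. In bulk RNA, fewer cells of a type and less RNA per cell cannot be told apart.

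Tested with limma over all clusters at a Benjamini-Hochberg adjusted p under 0.05, 1927 clusters were higher (5.79%) and 628 were lower (1.89%) in VHL+ hypoxia, a total of 2555 (7.67%). Counted once per gene through its brightest cluster with a single symbol, 1596 of 18417 genes were higher (8.67%) and 396 were lower (2.15%), together 10.8%. Every called gene had arrays that did not overlap between the groups. With 2 arrays a group, selection by a small p-value favours such separation, so it adds no support. The share over all genes was not counted. At least a doubling was reached by 237 of the higher and 121 of the lower genes, and at least an 8-fold change by 3 and 8 genes. The median gene stood at 0.07 on the log2 scale, and for 11200 genes (60.8%) the 95% interval of the change stayed within 0.5 of 0. After quantile normalization, which forces the arrays to share 1 distribution, 953 genes were higher (5.17%) and 732 were lower (3.97%), so the excess of higher genes depended on the scaling: 75.4% of called clusters were higher on the deposited values and 51.3% after quantile normalization. The counts also fell when any 1 of the 4 compared arrays was left out, most of all without an array of the hypoxic group. Each such fit leaves a group with 1 array and estimates the spread anew. A lost call, here and below, can thus come from that estimate as well as from the array left out.

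**Figure D1:**
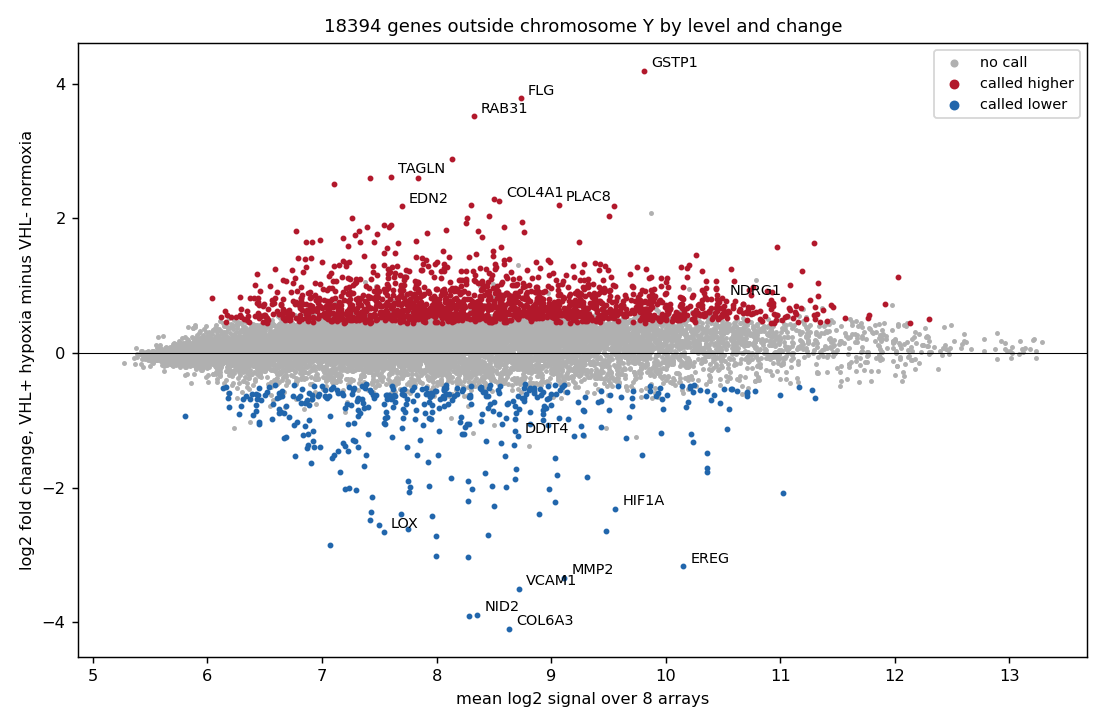
Mean log2 signal over 8 arrays (x axis) against the log2 fold change, VHL+ hypoxia minus VHL- normoxia (y axis), for 18394 genes outside chromosome Y, each point a gene. GSTP1 at 4.20 and COL6A3 at -4.10 mark the ends of the range, and red points (called higher) outnumber blue points (called lower).

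The targeted gene was read first. VHL had log2 signals of 9.08 and 9.16 in VHL+ hypoxia, against 8.24 and 8.43 in VHL- normoxia. Both transfected arrays lay above both untransfected ones, and the VHL- cells still showed a signal well over the array median. The difference was 0.78 ± 0.14 (n = 2 arrays each), with an adjusted p of 0.00178 in limma. Here and below, ± gives limma's SE, from a spread pooled over all 8 arrays and moderated by that of other clusters. HIF1A, which encodes the HIF-1 alpha subunit, was much lower, with 8.32 and 8.44 in VHL+ hypoxia, against 10.70 and 10.69 in VHL- normoxia. This gap of -2.32 ± 0.14 (adjusted p = 5.79e-09) was many times the spread of either pair. EPAS1, the HIF-2 alpha gene, had 9.62 and 9.20 in VHL+ hypoxia, against 10.11 and 10.31 in VHL- normoxia, a change of -0.79 ± 0.18 (adjusted p = 0.00894). These are transcript levels and do not give the protein. The paper states that clear cell renal carcinoma often lacks HIF-1 alpha, and that HIF-2 alpha then takes its role. ARNT2, a partner subunit expressed mainly in neural and renal tissue, changed by -0.82 ± 0.20 (adjusted p = 0.0175).

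Of the 14 measured genes of the oxygen sensing machinery, 1 was higher and 3 were lower, against the background of 8.67% and 2.15%, and the median was 0.07 beside 0.07 over all genes. The constitutive partner ARNT stood at 0.19 ± 0.15 and the prolyl hydroxylase EGLN1 at 0.08 ± 0.15. The hydroxylase EGLN3, itself a HIF target, stood at -0.44 ± 0.15 (adjusted p = 0.0908), and passed only after quantile normalization (adjusted p = 0.0331). The transcripts of the ligase subunits ELOB, ELOC, CUL2 and RBX1 all stood between 0.16 and 0.31 without passing. Leaving out VHL+ hypoxia replicate 1 ended the calls of VHL, EPAS1 and ARNT2 (adjusted p 0.0893 to 0.253), as did leaving out VHL+ hypoxia replicate 2 (0.0931 to 0.361), and ARNT2 was also lost without VHL- normoxia replicate 2 (0.306) and after quantile normalization (0.0785).

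Of the 38 measured HIF target genes, 2 were higher and 4 were lower, a called share of 15.8% beside 10.8% of all genes, and the 4 lower targets stood beside a background of 2.15%. After quantile normalization 2 were higher and 1 was lower. The median was -0.01 on the log2 scale beside 0.07 over all genes. The intervals of 12 targets stayed within 0.5 of 0, a share of 31.6% beside 60.8% of all genes, and the intervals of the other targets reached past 0.5. The promoters of 3 called targets are printed here because these genes carry the core letters of the HIF binding motif and yet moved in different directions. P4HA1 encodes a collagen prolyl hydroxylase subunit, DDIT4 encodes REDD1, an inhibitor of mTORC1, and LOX encodes lysyl oxidase, which crosslinks collagen. The letters searched were ACGTG and, for the other strand, CACGT, and they stand in capitals. Each line holds the 150 bases before the start of the RefSeq transcript, read 5′ to 3′ on the gene's strand in GRCh38.p14: P4HA1 from chr10:73096867-73097016 (minus strand), DDIT4 from chr10:72273774-72273923 (plus strand) and LOX from chr5:122078260-122078409 (minus strand).
P4HA1: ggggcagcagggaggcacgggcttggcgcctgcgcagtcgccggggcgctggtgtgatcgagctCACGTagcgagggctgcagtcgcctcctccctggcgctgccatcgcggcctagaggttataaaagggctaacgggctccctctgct
DDIT4: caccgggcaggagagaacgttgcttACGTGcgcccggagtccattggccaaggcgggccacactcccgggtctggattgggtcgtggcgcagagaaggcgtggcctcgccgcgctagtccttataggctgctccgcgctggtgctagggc
LOX: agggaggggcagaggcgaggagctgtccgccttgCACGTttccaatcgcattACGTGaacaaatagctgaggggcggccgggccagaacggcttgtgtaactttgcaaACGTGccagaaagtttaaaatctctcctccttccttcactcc

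The P4HA1 stretch holds 1 match, that of DDIT4 holds 1, and that of LOX holds 3. Searched over the 250 bases before to 50 after the start, the letters were found in 21.6% of the 27305 promoters of the RefSeq table, in 24.0% of those of measured genes and in 56.3% (18 of 32) of the HIF targets with a promoter. The promoters of genes called higher held them in 27.5% and those of genes called lower in 24.8%. The 18 targets with a match had a median change of 0.02, with 1 higher and 2 lower, and the 14 without had a median of 0.00, with 0 called. The promoters of NDRG1, HILPDA and VEGFA were not analysed here. A match is a description of the letters and not evidence of binding.

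P4HA1, whose promoter holds a single match, was higher, with 9.93 and 9.83 in VHL+ hypoxia, against 9.19 and 9.11 in VHL- normoxia. The change was 0.73 ± 0.15 (adjusted p = 0.00459). NDRG1, a stress-responsive gene that HIF raises in many cell types, had 11.28 and 11.12 in VHL+ hypoxia, against 10.48 and 10.30 in VHL- normoxia. It was 0.81 ± 0.14 higher (adjusted p = 0.00139), and its VHL+ normoxia arrays, at 8.91 and 8.93, were the lowest of the series. LOX, with 3 matches, fell to 6.35 and 6.24 in VHL+ hypoxia, against 9.66 and 8.24 in VHL- normoxia. Its VHL- arrays were far apart, and its change of -2.66 ± 0.38 carried an adjusted p of 0.000255. DDIT4 had 7.59 and 8.63 in VHL+ hypoxia, against 9.01 and 9.68 in VHL- normoxia (-1.24 ± 0.27, adjusted p = 0.00831). VEGFA, the angiogenic growth factor, had 9.82 and 9.97 in VHL+ hypoxia, against 10.95 and 10.43 in VHL- normoxia (-0.80 ± 0.20, adjusted p = 0.0207). The lipid droplet gene HILPDA changed by -1.02 ± 0.29 (adjusted p = 0.0335).

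These values can be set beside the 2 steps that separate the groups, each of which shares arrays with the main comparison. In VHL+ normoxia against VHL- normoxia, 17 of the 38 targets were lower and 0 were higher, with a median of -0.55 and 3.4% of all genes called lower. In VHL+ hypoxia against VHL+ normoxia, 6 targets were higher (NDRG1, SLC2A1, ADM, STC2, CA12 and P4HA1) and 0 were lower, with a median of 0.36 and 0.239% of all genes called higher. SLC2A1, the glucose transporter GLUT1, illustrates the sum: it had 12.61 and 12.47 in VHL+ hypoxia, 10.81 and 11.30 in VHL+ normoxia, 12.63 and 12.71 in VHL- hypoxia, and 12.21 and 12.06 in VHL- normoxia. Its change was 1.49 for hypoxia in VHL+ cells and -1.08 for VHL under normoxia, and the main comparison stood at 0.41 ± 0.16 (adjusted p = 0.143). ADM, the vasodilator adrenomedullin, stood at 1.19 and -1.64 in the same steps and at -0.45 ± 0.18 in the main comparison (adjusted p = 0.182). LOX was different in kind, with 0.04 for hypoxia in VHL+ cells and -2.70 for VHL under normoxia. PDK1, a kinase that inhibits pyruvate dehydrogenase, stood at 0.18 ± 0.19 in the main comparison.

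Among 10 genes tied to HIF-2 in renal carcinoma, TGFA, an EGF receptor ligand, was higher and VEGFA was lower. This was 20% beside 10.8% of all genes, and the median was -0.06. TGFA had 10.21 and 10.17 in VHL+ hypoxia, against 9.39 and 8.99 in VHL- normoxia (1.00 ± 0.17, adjusted p = 0.00129). CCND1, the cyclin of the G1 phase, stood at -0.61 ± 0.21 (adjusted p = 0.0824). Of 16 measured genes of glycolysis and lactate export only PFKM, a muscle-type phosphofructokinase, passed (0.47 ± 0.14, adjusted p = 0.0493), or 6.25% beside 10.8% of all genes. The intervals of 11 of the 16 stayed within 0.5 of 0, beside 60.8% of all genes. No call among the HIF targets or of TGFA held with VHL+ hypoxia replicate 1 left out (adjusted p 0.110 to 0.482 for these 7 genes) or with replicate 2 left out (0.0585 to 0.385), and VEGFA was lost without VHL- normoxia replicate 1 (0.146). PFKM lost its call without any 1 of the 4 compared arrays (adjusted p 0.214 to 0.268), and quantile normalization ended the calls of LOX, DDIT4, HILPDA and VEGFA (0.0533 to 0.118).

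**Figure D2:**
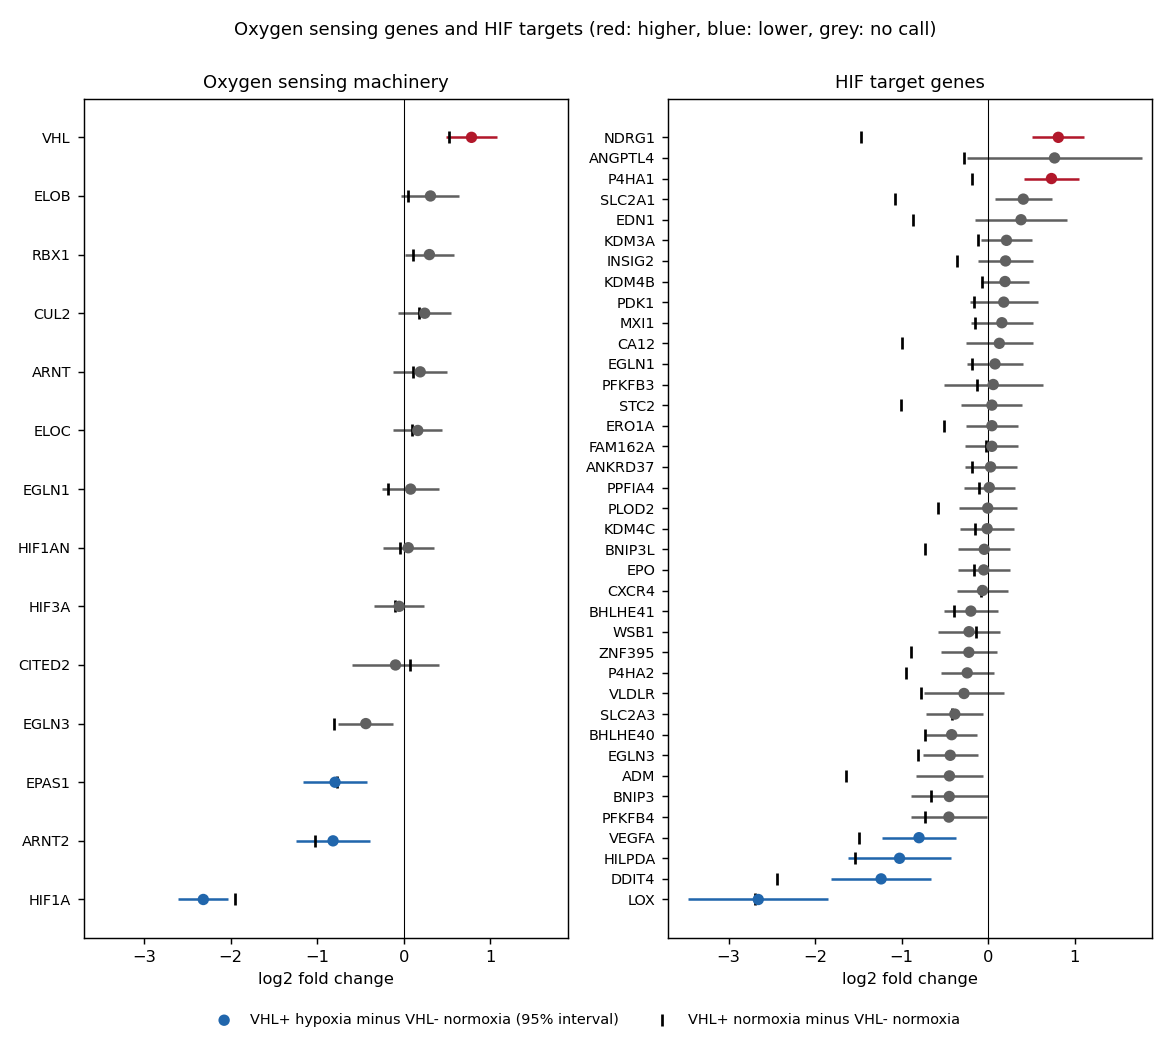
Log2 fold changes (x axis) of 14 oxygen sensing genes and 38 HIF targets (y axis), VHL+ hypoxia minus VHL- normoxia, as points with 95% intervals, and VHL+ normoxia minus VHL- normoxia as black ticks. HIF1A at -2.32 and LOX at -2.66 lie far left, while for targets such as SLC2A1 and ADM the tick lies well to the left of the point.

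VHL also has ties to proteins other than HIF, and not every gene listed here as such a partner encodes a protein that binds VHL. Of the 13 measured genes of this list 4 were higher and 1 was lower, beside 8.67% and 2.15% of all genes, with a median of 0.31. After quantile normalization 3 were higher and 2 were lower, with a median of 0.13. COL4A2, a chain of the collagen IV that builds basement membranes, had 9.68 and 9.86 in VHL+ hypoxia, against 7.88 and 8.06 in VHL- normoxia (1.80 ± 0.16, adjusted p = 1.26e-06). PRKCI, an atypical protein kinase C of cell polarity, was 0.89 ± 0.15 higher, and POLR2A, the large subunit of RNA polymerase II, was 0.83 ± 0.15 higher (adjusted p = 0.000757 and 0.00154). JUNB, an AP-1 transcription factor, was 0.60 ± 0.18 higher (adjusted p = 0.0444). The related atypical kinase PRKCZ was lower, at -0.61 ± 0.15 (adjusted p = 0.0188).

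COL4A1, the other main collagen IV chain, had 9.77 and 9.77 in VHL+ hypoxia, against 7.47 and 7.55 in VHL- normoxia. Each pair of arrays lay close together, and the difference was 2.26 ± 0.16 (adjusted p = 3.87e-08). The VHL+ normoxia arrays were at 9.18 and 9.59. COL4A1 and COL4A2 lie head to head and their transcripts start on opposite strands around a shared stretch, which is shown because both genes moved together. It runs over chr13:110307158-110307283 in GRCh38.p14, between the RefSeq starts, and is printed on the plus strand, 5′ to 3′ toward COL4A2, with the CCAAT letters (searched also as ATTGG) in capitals.
COL4A1-COL4A2: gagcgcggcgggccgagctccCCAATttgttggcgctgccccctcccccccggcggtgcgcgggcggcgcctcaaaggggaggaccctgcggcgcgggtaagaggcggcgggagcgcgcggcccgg

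CCAAT letters occurred once in these 126 bases, and 35.7% of the RefSeq promoters hold them on either strand, so the match does not single the pair out. Of 20 measured genes of basement membrane and laminins, 4 were higher and 1 was lower, beside 8.67% and 2.15% of all genes, with a median of 0.09. Besides the collagen IV pair, LAMA5, a laminin alpha chain, was 0.93 ± 0.15 higher (adjusted p = 0.000674) and HSPG2, which encodes perlecan, 0.78 ± 0.19 higher (adjusted p = 0.0138). NID2, a nidogen that links laminin to collagen IV, went the other way, with 6.67 and 6.45 in VHL+ hypoxia, against 10.54 and 10.35 in VHL- normoxia. The change was -3.89 ± 0.14 (adjusted p = 6.2e-12), far beyond the spread of either pair. Both VHL+ arrays of NID2 lay below their array median, and no detection call was used, so its low level has no measured floor. PRKCI, POLR2A, JUNB, PRKCZ and HSPG2 lost their calls without VHL+ hypoxia replicate 1 (adjusted p 0.0994 to 0.474), and these genes with LAMA5 without VHL+ hypoxia replicate 2 (0.0585 to 0.349). Without VHL- normoxia replicate 2 JUNB and PRKCZ did not pass (0.603 and 0.130), and after quantile normalization JUNB and HSPG2 did not (0.447 and 0.104).

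Of 28 measured genes of the interstitial matrix, 3 were higher and 7 were lower, beside 8.67% and 2.15% of all genes. The share of higher genes thus lay near that of all genes, and the list median was 0.01. COL6A3, a collagen VI chain, had 6.74 and 6.36 in VHL+ hypoxia, against 10.84 and 10.46 in VHL- normoxia. This was the largest fall of all genes with a single symbol, -4.10 ± 0.16 (adjusted p = 2.07e-11), and the other collagen VI chains COL6A1 and COL6A2 were at -1.36 ± 0.26 and -0.91 ± 0.16. FBN1, the microfibril protein fibrillin, was at -2.04 ± 0.23, HAS2, a hyaluronan synthase, at -2.02 ± 0.24, and CTHRC1, a secreted matrix protein, at -1.78 ± 0.17 (adjusted p 2.25e-05, 3.6e-05 and 2.34e-06). TNC, the matrix glycoprotein tenascin, was at -0.54 ± 0.15. In the other direction VCAN, a large proteoglycan, COL12A1, a fibril-associated collagen, and THBS1, an antiangiogenic matrix protein, were 1.22 ± 0.19, 1.21 ± 0.19 and 1.14 ± 0.16 higher. The fibrillar collagen COL1A1 stood at 0.13 ± 0.16.

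The 23 measured metalloproteases and their inhibitors included 6 lower and 2 higher genes, beside 2.15% and 8.67% of all genes. The share of higher genes lay near that of all genes, and the list median was -0.07. After quantile normalization 5 were lower and 0 were higher. MMP2, a gelatinase, had 8.07 and 7.09 in VHL+ hypoxia, against 10.87 and 10.97 in VHL- normoxia. The VHL+ hypoxia arrays were a full unit apart, and the change was still -3.34 ± 0.21 (adjusted p = 1.21e-08). ADAM12, a membrane metalloprotease, was at -2.20 ± 0.15, the collagenase MMP13 at -1.52 ± 0.16 and the aggrecanase ADAMTS5 at -1.38 ± 0.20 (adjusted p 3.89e-08, 6e-06 and 0.00023). MMP14, which activates MMP2 at the cell surface, was at -0.87 ± 0.25 (adjusted p = 0.0431). MMP7, whose arrays read 10.52 and 11.41 in VHL+ hypoxia, against 7.63 and 10.14 in VHL- normoxia, stood at 2.08 ± 0.64 and missed the threshold (adjusted p = 0.0537). Without VHL+ hypoxia replicate 1 and without replicate 2 the matrix list had medians of -0.11 and 0.08. Those of the protease list were -0.21 and 0.06, beside -0.02 and 0.17 over all genes. For the genes named here, 9 of 15 calls ended without VHL+ hypoxia replicate 1 (adjusted p 0.0723 to 0.387) and 10 without VHL+ hypoxia replicate 2 (0.067 to 0.465), among them COL6A1, COL6A2, FBN1, HAS2, TNC, COL12A1, VCAN, ADAMTS5 and MMP14 in both cases and THBS1 in the second. TNC and MMP14 were also lost without VHL- normoxia replicate 1 (0.101 and 0.138), TNC without VHL- normoxia replicate 2 (0.189), and COL6A1, TNC and MMP14 after quantile normalization (0.0537 to 0.220).

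Of 23 measured cytokines and NF-kB targets, 6 were lower and 1 was higher, beside 2.15% and 8.67% of all genes, and most members did not pass. The list median was -0.10. VCAM1, a leukocyte adhesion molecule, had 6.73 and 7.26 in VHL+ hypoxia, against 10.36 and 10.64 in VHL- normoxia (-3.51 ± 0.29, adjusted p = 5.2e-07). The neutrophil chemokine CXCL1 had 8.59 and 8.45 in VHL+ hypoxia, against 11.11 and 11.21 in VHL- normoxia (-2.64 ± 0.19, adjusted p = 6.78e-08). IL6, the cytokine of the acute-phase response, was at -2.22 ± 0.17, and the chemokines CXCL5 and CXCL2 at -1.98 ± 0.24 and -0.88 ± 0.17 (adjusted p 2.02e-07, 4.58e-05 and 0.00293). CXCL8, the chemokine interleukin 8, had 9.26 and 9.79 in VHL+ hypoxia, 7.19 and 8.17 in VHL+ normoxia, 10.55 and 11.33 in VHL- hypoxia, and 10.92 and 11.16 in VHL- normoxia. Its VHL+ normoxia arrays were the lowest, and the hypoxia step in VHL+ cells was 1.84 (adjusted p = 0.00494), so that the main comparison was at -1.52 ± 0.26 (adjusted p = 0.00133). The exception was CCL20, a chemokine for lymphocytes and dendritic cells, 0.56 ± 0.16 higher (adjusted p = 0.0319).

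Of 18 acute-phase and complement genes, 5 were lower and 1 was higher, beside 2.15% and 8.67% of all genes. Most did not pass, and the median was -0.07. SAA2, a serum amyloid A gene, had 6.87 and 7.87 in VHL+ hypoxia, against 9.67 and 10.47 in VHL- normoxia (-2.70 ± 0.34, adjusted p = 5.68e-05). Its near copy SAA1 was at -0.96 ± 0.15 (adjusted p = 0.000545), and probes of such similar genes may share signal. CP, the copper carrier ceruloplasmin, was at -2.27 ± 0.33 (adjusted p = 0.000273). CFI, which inactivates complement C3b, was 1.71 ± 0.26 higher (adjusted p = 0.000441). Without VHL+ hypoxia replicate 1 and without replicate 2 the cytokine and NF-kB list had medians of -0.19 and -0.11. Those of the acute-phase list were -0.12 and -0.13, beside -0.02 and 0.17 over all genes. Of the 11 genes named here, 8 lost the call without VHL+ hypoxia replicate 1 (adjusted p 0.0975 to 0.392) and the same 8 without VHL+ hypoxia replicate 2 (0.0559 to 0.186): CXCL5, CXCL8, CXCL2, CCL20, SAA2, CP, SAA1 and CFI. CCL20 was lost as well without VHL- normoxia replicate 1 or replicate 2 (0.072 and 0.157).

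Interferon-stimulated genes had the highest share of higher genes among the lists, 12 of 24, with 0 lower, beside 8.67% and 2.15% of all genes. The median was 0.55 beside 0.07 over all genes. BST2, the virus-tethering protein tetherin, had 9.09 and 9.68 in VHL+ hypoxia, against 7.81 and 7.09 in VHL- normoxia (1.93 ± 0.24, adjusted p = 5.84e-05). IFI27, a mitochondrial interferon-induced protein, had 7.99 and 8.41 in VHL+ hypoxia, against 6.78 and 6.72 in VHL- normoxia (1.45 ± 0.15, adjusted p = 8.71e-06). The membrane restriction factor IFITM2 was 1.43 ± 0.15 higher and the apoptosis regulator XAF1 1.41 ± 0.15 higher (adjusted p 8.59e-06 and 8.71e-06). IFIT1 and IFITM1, which block viral RNA and viral entry, were 1.34 ± 0.18 and 1.30 ± 0.23 higher, while MX1 stood at 0.03 and IFI44L at -0.09. The IFITM genes are close copies, and their signals may be shared. By contrast, none of 11 measured genes of MHC class I antigen processing passed, and the values of B2M, the light chain, and NLRC5, the class I transactivator, were 0.46 ± 0.15 and 0.38 ± 0.13 (adjusted p 0.081 and 0.0878). The interferon count was 8 after quantile normalization, beside 5.17% of all genes. The list median was 0.57 without VHL+ hypoxia replicate 1 and 0.45 without VHL+ hypoxia replicate 2, beside -0.02 and 0.17 over all genes. Of the genes named, BST2 and IFITM1 lost the call without replicate 1 (adjusted p 0.0598 and 0.0829), BST2, IFIT1 and IFITM1 without replicate 2 (0.0904 to 0.230), and IFITM1 after quantile normalization (0.0869).

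Smooth muscle and SRF target genes, which encode parts of the contractile actin network, were higher in 7 of 17 cases and lower in 0. This stood beside 8.67% and 2.15% of all genes, and the median was 0.36. TAGLN, which encodes the actin crosslinker transgelin, had 8.66 and 9.53 in VHL+ hypoxia, against 6.49 and 6.45 in VHL- normoxia (2.62 ± 0.19, adjusted p = 1.02e-07). Both VHL- normoxia arrays of TAGLN were below their array medians. MYL9, a myosin light chain, had 10.53 and 10.74 in VHL+ hypoxia, against 8.14 and 9.06 in VHL- normoxia (2.04 ± 0.25, adjusted p = 5.12e-05). ANKRD1, a mechanosensitive nuclear protein, was 1.48 ± 0.18 higher and ACTA2, smooth muscle actin, 0.93 ± 0.17 higher (adjusted p 4.63e-05 and 0.0018). The matricellular genes CCN1 and CCN2 were 1.08 ± 0.31 and 0.78 ± 0.20 higher. The count was 4 after quantile normalization, beside 5.17% of all genes, and ACTA2, CCN1 and CCN2 lost the call (adjusted p 0.0688 to 0.304). The list median was 0.33 without VHL+ hypoxia replicate 1 and 0.36 without replicate 2, beside -0.02 and 0.17 over all genes. MYL9, ACTA2, CCN1 and CCN2 lost the call in both cases, as did CCN1 and CCN2 without VHL- normoxia replicate 1.

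**Figure D3:**
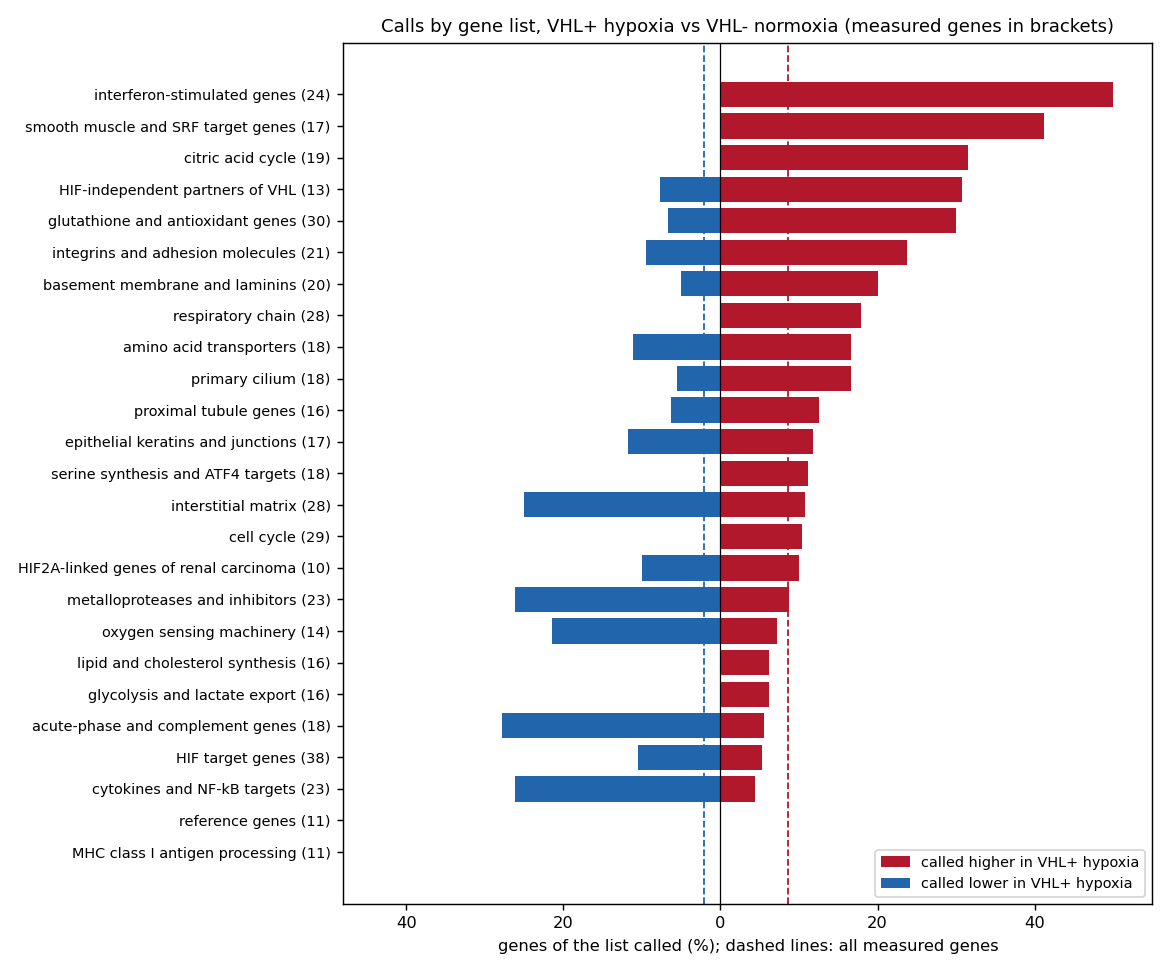
Percent of measured genes of each of 25 lists called higher (red, right) or lower (blue, left) in VHL+ hypoxia against VHL- normoxia, with dashed lines at 8.67% and 2.15% for all measured genes. Interferon-stimulated genes reach furthest right with 12 of 24, and the matrix, protease, cytokine and acute-phase lists reach furthest left.

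Outside these groups, the largest rises and falls named genes of varied function. GSTP1, a glutathione transferase of drug and oxidant detoxification, had 12.02 and 11.99 in VHL+ hypoxia, against 7.60 and 8.01 in VHL- normoxia. The replicates of each group lay close together beside a change of 4.20 ± 0.18 or 18.3-fold (adjusted p = 3.38e-11). FLG, which encodes the epidermal protein filaggrin, had 11.00 and 10.25 in VHL+ hypoxia, against 6.74 and 6.94 in VHL- normoxia (3.78 ± 0.23, adjusted p = 7.5e-09). RAB31, a GTPase of vesicle traffic, had 10.00 and 10.17 in VHL+ hypoxia, against 6.65 and 6.50 in VHL- normoxia (3.51 ± 0.15, adjusted p = 3.15e-11). For these 3 genes the hypoxia step within VHL+ cells was 0.26, 0.54 and -0.03, so that VHL+ normoxia arrays lay near the VHL+ hypoxia arrays. NIPAL2, a magnesium transporter family member, and PLXDC2, a plexin domain membrane protein, were 2.89 ± 0.16 and 2.60 ± 0.16 higher.

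EDN2 was unlike the other leading rises. This gene, which encodes the vasoconstrictor endothelin 2, had 9.71 and 8.76 in VHL+ hypoxia, 7.38 and 7.11 in VHL+ normoxia, 6.98 and 7.51 in VHL- hypoxia, and 6.98 and 7.14 in VHL- normoxia. Only the hypoxic VHL+ arrays stood out, and the main change was 2.18 ± 0.23 (adjusted p = 8.59e-06), beside 1.99 for hypoxia in VHL+ cells (adjusted p = 0.00077) and 0.18 for VHL under normoxia (adjusted p = 1). The hypoxia step in VHL- cells was also 0.18, and the test of the difference between the hypoxia steps did not pass for this gene (adjusted p = 0.118). PLAC8 and TMEM47 had large but uncertain rises. PLAC8, a cysteine-rich protein first found in placenta, had 10.69 and 9.93 in VHL+ hypoxia, against 6.85 and 9.37 in VHL- normoxia, and its 2.20 ± 0.64 (adjusted p = 0.0411) rested on arrays that were far apart. TMEM47, a junction protein, stood at 2.29 ± 0.39 and RBM23, an RNA-binding protein, at 2.04 ± 0.30 (adjusted p 0.00118 and 0.000269). Leaving out VHL+ hypoxia replicate 1 ended the calls of PLAC8, TMEM47 and RBM23 (adjusted p 0.158 to 0.595), leaving out replicate 2 ended these and those of CRYAB and ENPEP (0.0705 to 0.365), and PLAC8 and TMEM47 were lost after quantile normalization (0.329 and 0.113).

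Among the falls, SLC38A5, a transporter of glutamine and other neutral amino acids, had 6.47 and 6.27 in VHL+ hypoxia, against 10.25 and 10.30 in VHL- normoxia (-3.90 ± 0.14, adjusted p = 6.2e-12). EREG, the EGF receptor ligand epiregulin, had 8.36 and 8.49 in VHL+ hypoxia, against 11.58 and 11.61 in VHL- normoxia (-3.17 ± 0.27, adjusted p = 6.56e-07). Both pairs were tight and widely separated. DNAJC15, a mitochondrial cochaperone, had 5.86 and 5.73 in VHL+ hypoxia, against 8.93 and 8.37 in VHL- normoxia (-2.85 ± 0.17, adjusted p = 6.28e-09). COXFA4L3, annotated in older tables as C15orf48, was at -2.56 ± 0.17, the sushi-repeat protein SRPX at -2.72 ± 0.34 and the endothelial lipase LIPG at -2.61 ± 0.67 (adjusted p 2.6e-08, 4.96e-05 and 0.0213). The LIPG arrays read 6.65 and 6.28 in VHL+ hypoxia, against 10.42 and 7.74 in VHL- normoxia, so one VHL- array carried most of its change. SRPX and LIPG lost the call without VHL+ hypoxia replicate 1 (adjusted p 0.0888 and 0.433) and without VHL+ hypoxia replicate 2 (0.119 and 0.416), and LIPG after quantile normalization (0.235).

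**Figure D4:**
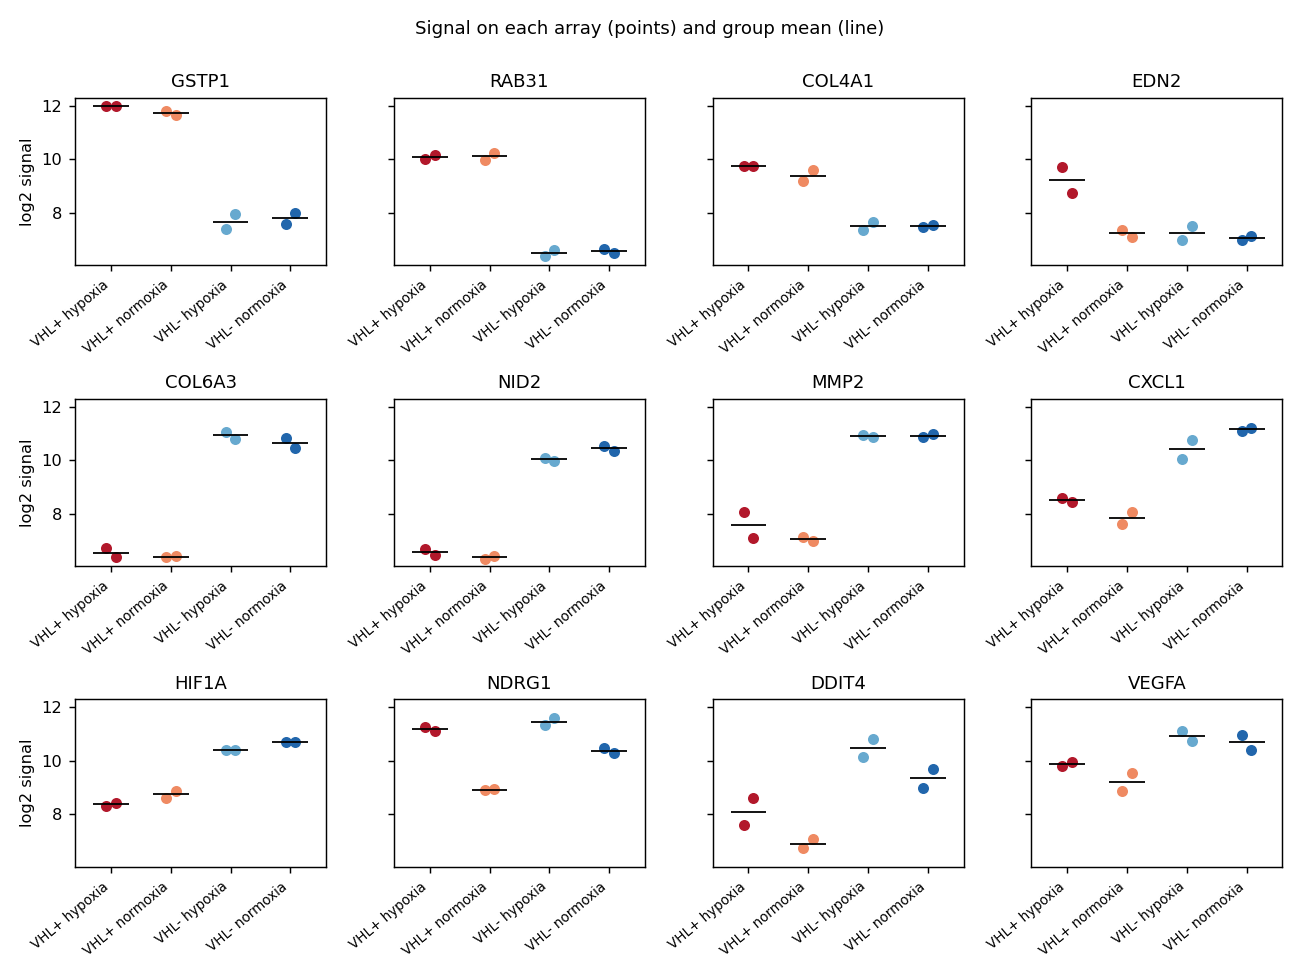
Log2 signal (y axis) of 12 genes, 1 point per array and a line at the group mean, for VHL+ hypoxia, VHL+ normoxia, VHL- hypoxia and VHL- normoxia (x axis). EDN2 stands out in VHL+ hypoxia alone, while GSTP1, RAB31, COL6A3 and NID2 divide by VHL status, and NDRG1 is lowest in VHL+ normoxia.

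Epithelial and tubular identity genes split. Of 17 keratins and junction genes 2 were higher and 2 were lower, beside 8.67% and 2.15% of all genes. The share of higher genes lay near that of all genes, and the median was 0.00. KRT19, a simple-epithelium keratin, had 7.08 and 6.61 in VHL+ hypoxia, against 9.86 and 9.89 in VHL- normoxia (-3.03 ± 0.15, adjusted p = 7.03e-10). EPCAM, an epithelial adhesion molecule, was at -1.06 ± 0.16, while the keratin KRT80 and the leaky-junction claudin CLDN2 were 0.86 ± 0.19 and 0.52 ± 0.15 higher (adjusted p 0.000332, 0.00734 and 0.0367). KRT8 stood at -0.21 ± 0.14. Of 16 proximal tubule genes, the aminopeptidase ENPEP and the chaperone CRYAB were higher and the aminopeptidase ANPEP was lower. The called share was 18.8% beside 10.8% of all genes. ENPEP, which cleaves angiotensin II, had 10.24 and 10.95 in VHL+ hypoxia, against 8.55 and 8.28 in VHL- normoxia (2.18 ± 0.24, adjusted p = 1.55e-05). ANPEP, a brush-border peptidase, had 6.76 and 6.30 in VHL+ hypoxia, against 9.61 and 9.49 in VHL- normoxia (-3.02 ± 0.16, adjusted p = 9.57e-10). CRYAB was 2.60 ± 0.32 higher (adjusted p = 5.06e-05).

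Adhesion molecules were higher in 5 of 21 cases and lower in 2, beside 8.67% and 2.15% of all genes. After quantile normalization 3 were higher and 2 were lower, beside 5.17% and 3.97%. L1CAM, a neural adhesion molecule, and ITGA6, a laminin-binding integrin chain, were 1.82 ± 0.14 and 1.81 ± 0.16 higher (adjusted p 1.97e-07 and 1.18e-06), and MDGA2, a membrane protein of synapses, was 2.51 ± 0.16 higher (adjusted p = 1.57e-08). CDH11, a mesenchymal cadherin, had 6.43 and 6.16 in VHL+ hypoxia, against 9.11 and 7.49 in VHL- normoxia, and was lower (adjusted p = 0.00293). In the keratin, tubule and adhesion groups, CLDN2, KRT80 and CDH11 lost the call without VHL+ hypoxia replicate 1 (adjusted p 0.184 to 0.350), and these with EPCAM, ENPEP and CRYAB without VHL+ hypoxia replicate 2 (0.0705 to 0.283). CLDN2 was lost without VHL- normoxia replicate 2 (0.434), and KRT80 and CDH11 after quantile normalization (0.0751 and 0.115).

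Glutathione and antioxidant genes were higher in 9 of 30 cases and lower in 2, beside 8.67% and 2.15% of all genes. The median was 0.14. After quantile normalization the counts were the same, beside 5.17% and 3.97% of all genes, and the median was 0.03. GSTP1 led the list. GSTT1, another glutathione transferase, had 9.09 and 9.47 in VHL+ hypoxia, against 8.18 and 8.37 in VHL- normoxia (1.01 ± 0.18, adjusted p = 0.00142), and MGST3, a membrane-bound family member, was 0.78 ± 0.14 higher (adjusted p = 0.00136). GSTM3, a transferase of the mu class, had 6.68 and 6.51 in VHL+ hypoxia, against 7.96 and 8.13 in VHL- normoxia (-1.45 ± 0.17, adjusted p = 3.02e-05), and SOD2, the mitochondrial superoxide dismutase, was at -1.14 ± 0.21 (adjusted p = 0.00251). The list median was 0.14 without VHL+ hypoxia replicate 1 and 0.15 without replicate 2, beside -0.02 and 0.17 over all genes. Leaving out VHL+ hypoxia replicate 1 ended the calls of GSTT1, MGST3 and SOD2 (adjusted p 0.0672 to 0.283), and leaving out replicate 2 those of GSTT1, MGST3, GSTM3 and SOD2 (0.0601 to 0.165).

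Of 18 amino acid transporters 3 were higher and 2 were lower, with a median of 0.21. Their called share was 27.8% beside 10.8% of all genes, and most members did not pass. SLC7A5, the light chain of the LAT1 transporter of large neutral amino acids, had 11.62 and 11.69 in VHL+ hypoxia, against 9.35 and 10.80 in VHL- normoxia (1.58 ± 0.33, adjusted p = 0.00517), and its heavy chain SLC3A2 was 0.86 ± 0.20 higher (adjusted p = 0.0133). The glycine transporter SLC6A9 was 0.62 ± 0.13 higher and SLC7A7, which exports basic amino acids, was at -0.95 ± 0.20 (adjusted p 0.00612 and 0.00621). Of 18 genes of serine synthesis and the ATF4 response, SHMT1, a cytosolic one-carbon enzyme, and NUPR1, a stress-induced nuclear protein, were 1.02 ± 0.17 and 1.09 ± 0.23 higher, and 0 were lower, a called share of 11.1% that lay near the 10.8% of all genes. After quantile normalization the transporters had 1 higher and 1 lower gene, and the ATF4 list 1 higher. Apart from SLC38A5, all transporters and both ATF4-list genes named here lost the call without VHL+ hypoxia replicate 1 (adjusted p 0.102 to 0.321) and without VHL+ hypoxia replicate 2 (0.0774 to 0.312). SLC3A2, SLC7A7 and NUPR1 were lost without VHL- normoxia replicate 1 (0.0675 to 0.166), SLC6A9 without VHL- normoxia replicate 2 (0.0695), and SLC7A5, SLC3A2, SLC7A7 and NUPR1 after quantile normalization (0.0929 to 0.179).

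Mitochondrial energy genes moved by less than a doubling. In the citric acid cycle 6 of 19 genes were higher and 0 were lower, beside 8.67% and 2.15% of all genes, with a median of 0.33. The cytosolic and mitochondrial isocitrate dehydrogenases IDH1 and IDH2 were 0.78 ± 0.14 and 0.76 ± 0.14 higher (adjusted p 0.00134 and 0.00248), with IDH2 at 10.43 and 10.50 in VHL+ hypoxia, against 9.64 and 9.78 in VHL- normoxia. DLST, a subunit of the 2-oxoglutarate dehydrogenase complex, and IDH3G, a subunit of the NAD-linked enzyme, were 0.71 ± 0.15 and 0.68 ± 0.14 higher. In the respiratory chain 5 of 28 were higher and 0 were lower, a called share of 17.9% beside 10.8% of all genes, with a median of 0.10. These included the complex I genes NDUFA2, NDUFS1 and NDUFB3 at 0.71 ± 0.14, 0.69 ± 0.15 and 0.66 ± 0.15 and the complex IV gene COX5B at 0.71 ± 0.15. Of 16 lipid and cholesterol genes only the regulator SREBF1 passed (0.59 ± 0.17, adjusted p = 0.0438). This was 6.25% beside 10.8% of all genes, with a list median of -0.16. After quantile normalization the citric acid cycle had 3 higher and 1 lower, the respiratory chain 3 higher and 2 lower, and the lipid list 0 higher and 2 lower, and IDH1, NDUFA2 and SREBF1 did not pass (0.0509 to 0.167). All these genes failed without VHL+ hypoxia replicate 1 (adjusted p 0.0742 to 0.255), all but IDH1 without replicate 2 (0.0676 to 0.406), and DLST, IDH3G, NDUFS1 and SREBF1 failed without VHL- normoxia replicate 1 (0.0576 to 0.272).

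Of 29 cell cycle genes, the mitotic kinases CDK1, BUB1 and AURKB were higher and 0 were lower, a called share of 10.3% that lay near the 10.8% of all genes, with a median of 0.17. CDK1, which drives entry into mitosis, had 10.26 and 10.19 in VHL+ hypoxia, against 9.23 and 9.24 in VHL- normoxia (0.99 ± 0.16, adjusted p = 0.000909), and BUB1 and AURKB were 0.92 ± 0.19 and 0.70 ± 0.14 higher. Of 18 genes of the primary cilium, a structure VHL helps to maintain, RPGRIP1L, BBS2 and IFT80 were 0.70 ± 0.16, 0.69 ± 0.16 and 0.69 ± 0.19 higher, and the transport protein IFT20 was at -0.59 ± 0.14. The called share of this list was 22.2% beside 10.8% of all genes. None of 11 reference genes passed on the deposited values, with ACTB at 0.15 and GAPDH at 0.03, and after quantile normalization 2 of them were called lower, with a list median of -0.10. All 7 named cell cycle and cilium genes lost the call with VHL+ hypoxia replicate 1 left out (adjusted p 0.0951 to 0.340) or replicate 2 left out (0.105 to 0.330). AURKB, BBS2 and IFT20 also lost it without VHL- normoxia replicate 1 (0.0822 to 0.137), IFT20 without VHL- normoxia replicate 2 (0.0745), and BUB1 and IFT80 after quantile normalization (0.0967 and 0.113).

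Set out by chromosome, with names placed through RefSeq (GRCh38.p14), the calls were uneven. On chromosome 13, 130 of 317 genes were higher (41.0%) and 1 was lower, against 8.12% and 2.17% of the 18045 genes on the other chromosomes, and the median was 0.30 against 0.07. Taking the 191 genes of chromosome 13 whose mean signal was above the mean of the array medians, 129 were higher and 93.2% had a positive change, with a median of 0.71, against 0.16 for such genes elsewhere. The median log2 signal of these 191 genes was 8.54 and 8.37 in VHL+ hypoxia, 8.13 and 8.44 in VHL+ normoxia, 7.60 and 7.75 in VHL- hypoxia, and 7.73 and 7.68 in VHL- normoxia. All VHL+ arrays thus lay above all VHL- arrays, while the 10970 such genes elsewhere had medians of 8.34 and 8.27 in VHL+ hypoxia, 8.01 and 8.24 in VHL+ normoxia, 7.95 and 8.14 in VHL- hypoxia, and 8.11 and 8.16 in VHL- normoxia. The chromosome's median was 0.16 for VHL under normoxia and 0.10 for hypoxia in VHL+ cells, where the other chromosomes were at -0.03 and 0.11.

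The collagen IV pair described above lies on this chromosome. RB1, the retinoblastoma tumour suppressor, had 10.92 and 10.88 in VHL+ hypoxia, against 9.67 and 9.53 in VHL- normoxia (1.30 ± 0.15). DIAPH3, an actin-nucleating formin, ATP11A, a lipid flippase, CARS2, the mitochondrial cysteine tRNA ligase, and ABCC4, a drug and nucleotide exporter, were 1.51 ± 0.16, 1.52 ± 0.18, 1.65 ± 0.24 and 1.29 ± 0.20 higher. The lone lower gene was DNAJC15. In sliding windows of 25 neighbouring genes, 132 of the 293 windows on chromosome 13 had a median over 0.3 (45.1%), against 438 of 17517 elsewhere (2.5%), and the highest window, from EEF1AKMT1 to NUP58, stood at 0.70. Genes of a chromosome are not replicates and were read on the same arrays, so these are descriptions with no test. The 41.0% was 35.3% after quantile normalization, with a chromosome median of 0.22. The chromosome's median was 0.19 without VHL+ hypoxia replicate 1 and 0.35 without replicate 2, beside -0.02 and 0.17 over all genes. ATP11A, CARS2 and ABCC4 lost the call in both cases.

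**Figure D5:**
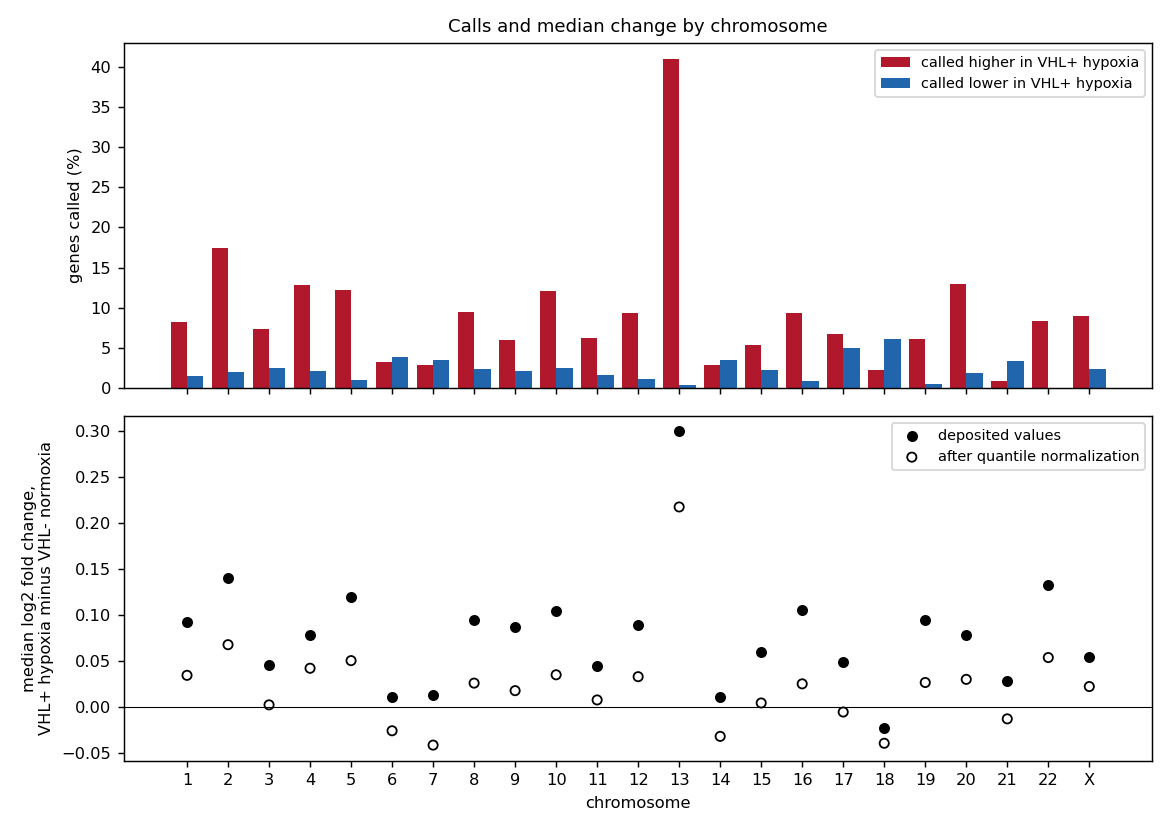
Percent of measured genes called higher or lower in VHL+ hypoxia against VHL- normoxia on each chromosome (upper panel) and the median log2 fold change (lower panel, filled for deposited values, open after quantile normalization). Chromosome 13 stands apart with 41.0% higher and a median of 0.30, while chromosome 18 has 2.27% higher and 6.06% lower.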

How the data were processed

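Total RNA of 786-O cells was measured on 8 Affymetrix Human Gene 1.0 ST arrays in 4 groups of 2 biological replicates, as the labels give them. The deposited values are log2 signals that the authors obtained by robust multi-array averaging (RMA) in Partek (versions not given in the sources used here), and they were used as deposited, with no pseudocount. With 2 arrays a group, precision is limited by their number.

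Of 33297 clusters, 19460 carried 1 gene symbol in the platform annotation, 1754 several and 12083 none. A gene was represented by its 1-symbol cluster with the highest mean signal (18417 genes). Group means were fitted over all 8 arrays with limma 3.58.1 in R 4.3.3 (4 residual and 14.0 prior degrees of freedom) and contrasts were adjusted by Benjamini-Hochberg over all clusters, called at 0.05. The fit was tested on simulated data. Chromosomes, names and promoter sequences came from RefSeq (GRCh38.p14), and no coordinates of clusters were used.

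Named were the 15 largest rises (apart from 1, which is not reported here) and 15 largest falls, up to 4 called genes of each of 25 lists and 4 marker lists (in a list with no call, its 2 lowest p-values), a fixed set of pathway genes, and all called genes of the oxygen sensing, HIF target and VHL partner lists. Further list members were named after their values were seen. The lists and named genes were chosen with earlier results of these data known. Alternatives were quantile normalization, median centring, the 4 compared arrays alone, trend and robust estimation, a replicate block, a filter on dim clusters, 1-symbol clusters, the mean of a gene's clusters, the methods' one-way test, a 2-fold minimum and each array left out. With 1 array left in a group, that array was assumed to vary like the other groups. The spread was estimated anew for each left-out array. A lost call thus does not by itself show that 1 array carried the change.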

Additional observations from a re-analysis of the deposited data

How the results depend on the processing

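The counts of called clusters (2555, of which 1927 were higher and 628 lower) differed with the scaling and when single arrays were left out. Quantile normalization gave 1127 higher and 1068 lower, and median centring 1167 and 685. With each array left out in turn, total calls ranged from 212 to 3778, higher calls from 109 to 2835 and lower calls from 79 to 943, and called HIF targets from 0 to 9 (6 in the full fit). The total fell to 212 and 230 without VHL+ hypoxia replicate 1 and replicate 2, which leaves that group 1 array. HIF targets called numbered 3 after quantile normalization or median centring, 3 with a 2-fold minimum, and 10 with the 4 compared arrays alone or with the replicate block. A 2-fold minimum left 432 clusters, 266 higher and 166 lower. The methods' one-way test was run here on the 4 compared arrays alone. The paper does not say which arrays entered its own test. At an unadjusted p under 0.005 the test run here gave 497 clusters (409 higher, 88 lower, 0 HIF targets). The paper's supplement lists more genes at that threshold under this comparison's label, with slightly more lower than higher. Its main text gives the same total for VHL+ against VHL- cells under hypoxia. The reason for the difference was not tested. After adjustment the test run here gave 1 cluster, 0 higher and 1 lower, with 0 HIF targets and 3586 clusters at an unadjusted p under 0.05. The cause of these shifts was not tested beyond what each alternative changes. The replicate block gave 2763 higher and 929 lower clusters. Same-numbered arrays of the compared groups deviated together at r = 0.21 and those of all group pairs at 0.05 to 0.60. The higher values were within a cell line, 0.60 between the VHL- groups and 0.31 between the VHL+ groups. The numbers were not taken to pair the samples, so the main fit treated these shared deviations as independent. The naming rules gave 94 called genes, and 65 of them kept the call under all alternatives other than left-out arrays and the methods' test. Fewer kept it with each array left out in turn. The further list members named after their values were seen are not in these counts. No called gene of this set changed direction in these alternatives. The 2 arrays a group, and signals near the array median on the low side of many large changes, limit the size of the folds.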

Other observations

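Smaller stretches of the genome than chromosome 13 also had shifted window medians in VHL+ hypoxia against VHL- normoxia, given here as descriptions with no test. Each window named was the highest or lowest of the overlapping windows on its chromosome, and most of its genes were not called. On chromosome 2, 17.4% of genes were higher (10.6% after quantile normalization), and the window of 25 genes from SPATS2L to FAM117B had a median of 0.50 with 12 genes higher and 0 lower (0.35 after quantile normalization). On chromosome 20 the window from TP53RK to PARD6B stood at 0.47, with 12 higher and 1 lower (0.29 after quantile normalization). Chromosome 17 held windows of both signs, 0.42 from PSMB6 to MIS12 (8 higher, 1 lower) and -0.35 from GOSR1 to MYO1D (0 higher, 5 lower). The second was the lowest of all windows on the deposited values. After quantile normalization these 2 windows stood at 0.26 and -0.52. The window from SUPT16H to PSMB5 on chromosome 14 stood at -0.33, with 1 higher and 7 lower (-0.47 after quantile normalization). For VHL under normoxia, which shares the VHL- arrays, these 5 windows stood at 0.32, 0.32, 0.20, -0.37 and -0.42. Other chromosomes held windows of like size, such as 0.46 on chromosome 12 (BCAT1 to IPO8) and 0.43 on chromosome 4 (SGCB to SRP72).

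Several genes differed more between the replicates of VHL- cells than between groups, in the same replicate order in normoxia and hypoxia. CCL2, a monocyte chemokine, had 7.47 and 8.45 in VHL+ hypoxia, 10.52 and 7.82 in VHL- hypoxia, and 10.75 and 7.53 in VHL- normoxia. PLAC8 had 6.66 and 9.33 in VHL- hypoxia and 6.85 and 9.37 in VHL- normoxia. LIPG had 10.50 and 7.64 in VHL- hypoxia and 10.42 and 7.74 in VHL- normoxia. Same-numbered arrays of the VHL- groups deviated together at r = 0.60 over all clusters. The complement gene C3 had 8.07 and 10.31 in VHL+ hypoxia, against 10.22 and 10.65 in VHL- normoxia, and did not pass (adjusted p = 0.238).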
